A study of Mus musculus with 14 samples.

Results

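The primitive streak genes described here are 7 protein-coding genes, T (also named Tbxt), Mixl1, Nkx1-2, Fgf8, Evx1, Gsc and Mesp1, taken as a named list from the 55416 gene identifiers of the count table. They were followed in all 14 libraries, chiefly in epiblast stem cells. All 7 had an identifier in the table: T is ENSMUSG00000062327 on chromosome 17, Mixl1 ENSMUSG00000026497 on chromosome 1, Nkx1-2 ENSMUSG00000048528 on chromosome 7, Fgf8 ENSMUSG00000025219 on chromosome 19, Evx1 ENSMUSG00000005503 on chromosome 6, Gsc ENSMUSG00000021095 on chromosome 12 and Mesp1 ENSMUSG00000030544 on chromosome 7. Of the 7, 6 passed the filter on low counts and were tested; Mesp1, with at most 6 counts in any library, was not.

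The primitive streak is the site at the posterior side of the embryo where epiblast cells leave the epithelium and become mesoderm and definitive endoderm. WNT3 from the posterior epiblast and Nodal signalling start it, and the T-box factor T, a target of both, is its general marker. Epiblast stem cells are derived from the post-implantation epiblast and are kept in Activin and FGF, which engage the Nodal receptors and the FGF receptors, and such cultures commonly hold cells with some streak gene expression.

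The cells were mouse stem cells of a Mus molossinus and Mus musculus hybrid strain, treated for 12 h with 50 µM STM2457, an inhibitor of METTL3, or with the solvent DMSO. METTL3 is the catalytic subunit of the complex that writes N6-methyladenosine (m6A) on RNA, which marks many transcripts for decay. Epiblast stem cells (EpiSC) carried the genotype XmolXmus-ΔTsix, were sequenced as 2 libraries in each arm and grew with Fgf2 and Activin A in serum replacement. Trophoblast stem cells (TSC, labelled WT) gave 2 libraries per arm and grew with Fgf4 in serum and fibroblast-conditioned medium, and extraembryonic endoderm stem cells (XEN, labelled WT) gave 3 per arm and grew in serum. The labels do not mention independent clones or separate cultures of a line. The tests below therefore weigh a difference against the spread of these libraries alone, and that spread may be technical. It is 1 estimate per gene over all 3 lines, which the fit moderates toward the spread of other genes. A difference in EpiSC or TSC is weighed partly against the XEN spread only where XEN has counts of the gene. T, Nkx1-2, Evx1 and Gsc had 0 counts in XEN, which added no spread of its own for them. Replicates differed most in XEN, where their chi-square per degree of freedom was 10.3 to 26.8. It was 4.84 and 4.07 in EpiSC and 5.32 and 2.25 in TSC, with DMSO and STM2457. Genotype, medium and origin differ between the lines together and cannot be told apart.

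Library totals were 18640099 to 21097380 counts in EpiSC, 17909934 to 20354242 in TSC and 6826496 to 10024628 in XEN, so a low level is measured with the least precision in XEN. With DMSO, 12 EpiSC markers summed to 1968 to 2011 CPM in EpiSC, 1014 to 1085 in TSC and 143 to 181 in XEN. The 12 TSC markers summed to 3673 to 3895 CPM in TSC, 577 to 583 in EpiSC and 325 to 529 in XEN. The 12 XEN markers summed to 43957 to 50688 CPM in XEN, 1056 to 1127 in EpiSC and 517 to 540 in TSC. Pou5f1 had 0 counts in all TSC libraries and Cdx2 at most 2 in any EpiSC library. Pou3f1, an EpiSC marker, was higher in TSC with DMSO, at 247 and 237 CPM, than in EpiSC, at 117 and 125. Mettl3 itself, whose product and not whose mRNA the inhibitor binds, stood at 31.1 ± 1.69 CPM with DMSO and 26.4 ± 0.126 with STM2457 in EpiSC (SD, n = 2 each; adjusted p = 0.439). Levels are given as CPM, a count scaled to the library total. A gene was called changed at an adjusted p under 0.05 in edgeR's quasi-likelihood test, with Benjamini-Hochberg adjustment over all 18430 tested genes. Fold changes are log2 values ± SE.

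The promoter sequences of T and Nkx1-2 are shown because these were the members with the lowest fold changes in EpiSC and because T is a known target of WNT signalling. They are from RefSeq on build GRCm38.p6, chr17:8434173-8434422 on the + strand for T and chr7:132599638-132599887 on the - strand for Nkx1-2, each the 250 bases before the annotated transcript start. Capitals mark a match to the core sequence of the TCF/LEF factors that mediate WNT signalling.
T: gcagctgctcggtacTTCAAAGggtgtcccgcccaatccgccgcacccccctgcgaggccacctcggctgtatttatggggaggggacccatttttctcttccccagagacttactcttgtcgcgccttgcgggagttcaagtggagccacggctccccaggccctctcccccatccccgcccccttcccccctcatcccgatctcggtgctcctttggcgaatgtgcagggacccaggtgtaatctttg
Nkx1-2: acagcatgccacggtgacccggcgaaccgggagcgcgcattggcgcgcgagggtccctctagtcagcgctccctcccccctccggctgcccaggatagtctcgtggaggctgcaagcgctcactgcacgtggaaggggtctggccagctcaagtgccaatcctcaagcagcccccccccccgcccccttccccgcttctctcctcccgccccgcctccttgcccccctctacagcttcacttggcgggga

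The T window held 1 match, CTTTGAA on the strand opposite to the gene, which begins 235 bases before the start, and the Nkx1-2 window held none. The words searched were CTTTG followed by AA, AT, TA or TT, on both strands, in windows from 250 bases before to 50 bases after the start. Of 32851 such windows in the RefSeq table, 16.9% held at least 1 of them. Windows were found for 5 of the 7 members, T, Nkx1-2, Evx1, Gsc and Mesp1, and none for Mixl1 and Fgf8. Mesp1, the mesoderm bHLH gene, held 2 matches, 73 and 31 bases before its start, and Evx1 and Gsc held none. The T-box word TCACACC stood in the Mesp1 window alone among the 5, after the start, and in 3.98% of all windows. The FOXH1 word AATCCAC of the Nodal pathway stood in none of the 5 and in 2.49% of all windows. These are matches of letters, not measured binding.

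The first comparison placed the genes in the untreated lines. In DMSO, streak gene expression in EpiSC was mainly that of T, Fgf8 and Nkx1-2, and in TSC that of T, Gsc and Mixl1, while XEN held 1 count in all for the 7 genes. T, the T-box factor of nascent mesoderm, stood at 44.0 and 40.04 CPM in the 2 EpiSC libraries, at 3.63 and 3.72 in the 2 TSC libraries and at 0 counts in XEN. Fgf8, the FGF ligand of the streak that migrating cells need, stood at 15.1 and 17.5 CPM in EpiSC, with 1 count in each TSC library and 0 in XEN. Nkx1-2, a homeobox gene of the late streak and the neighbouring neuromesodermal epiblast, stood at 11.0 and 10.7 CPM in EpiSC and had 0 counts in TSC and XEN. The EpiSC libraries thus lay above every TSC and XEN library for these 3 genes.

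The other members were low. Gsc, the homeobox gene of the anterior streak and organizer, stood at 1.14 and 1.32 CPM in EpiSC and at 1.11 and 1.05 in TSC. Mixl1, a homeobox gene of the streak needed for endoderm and mesoderm, stood at 1.29 and 1.27 CPM in EpiSC and at 1.26 and 0.854 in TSC, with 1 count in 1 XEN library. Their EpiSC and TSC levels lay close together. Evx1, a homeobox gene of the posterior streak, stood at 0.596 and 0.424 CPM in EpiSC, with 0 and 2 counts in TSC. Mesp1, which marks cardiac and other early mesoderm leaving the streak, had 1 and 6 counts in EpiSC and 0 and 2 in TSC. Both were at 0 in XEN, where 3 counts over the group would be 0.145 CPM.

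**Figure D1:**
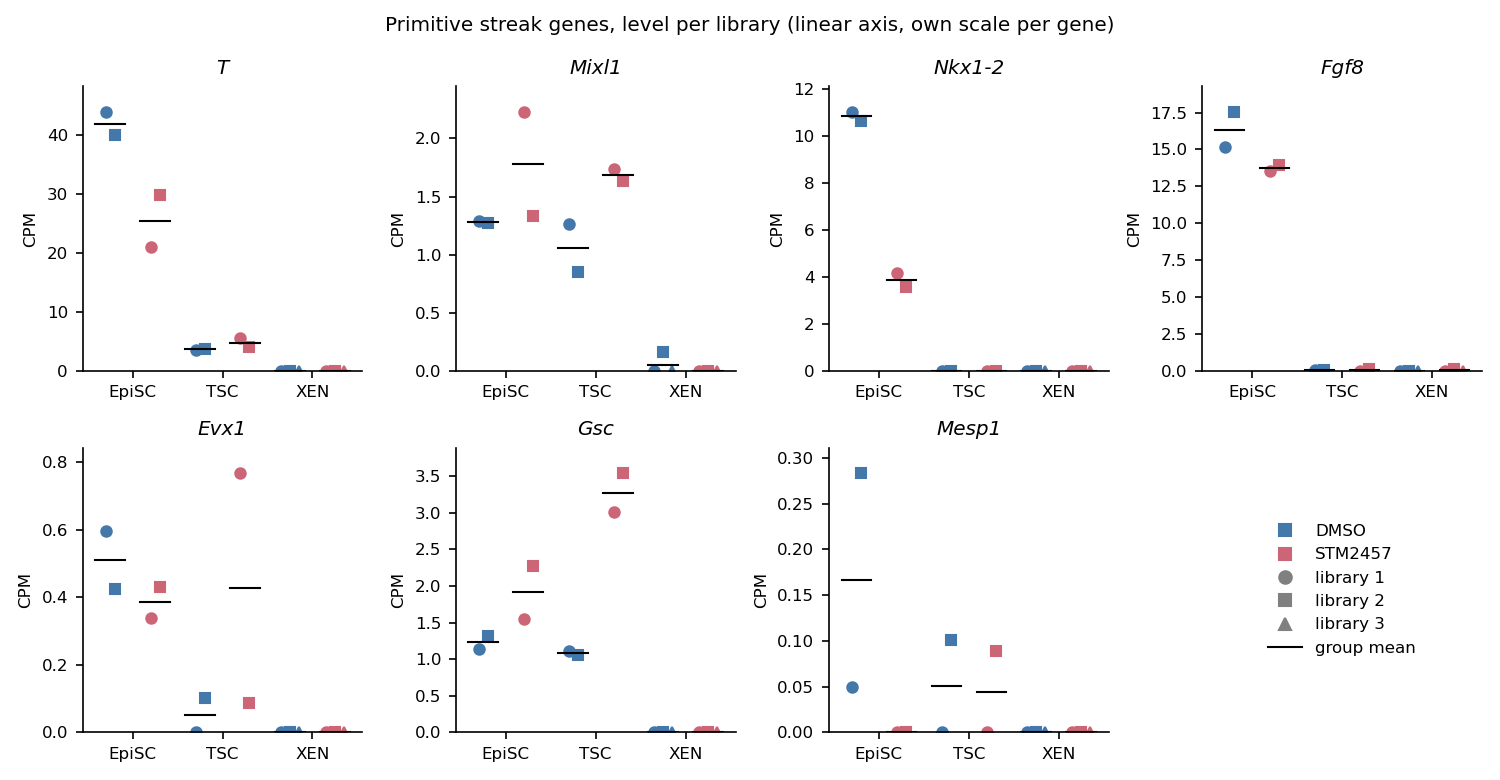
Level of each of the 7 genes in every library, in CPM on a linear axis with its own scale per gene; colour gives the arm, the symbol the library number and the bar the group mean. T, Fgf8 and Nkx1-2 are highest in EpiSC with DMSO, at group means of 42.0, 16.3 and 10.8 CPM, and all 6 XEN libraries lie at 0 apart from single counts of Mixl1 and Fgf8.

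The test of the lines put T 3.51 ± 0.236 higher in EpiSC than in TSC (11.4-fold, adjusted p = 4.00e-08). Nkx1-2 was at least 147-fold higher in EpiSC than in TSC, with the TSC level set to 3 counts over the group. Against XEN on the same floor, the EpiSC level was at least 291-fold higher for T, 113-fold for Fgf8, 75.0-fold for Nkx1-2, 8.52-fold for Gsc and 3.53-fold for Evx1. For Mixl1 and Gsc no difference between EpiSC and TSC was called: the log2 differences were 0.27 ± 0.425, with a 95% interval from -0.63 to 1.18, and 0.18 ± 0.384, with an interval from -0.65 to 1.01. These intervals do not show that the levels are alike. In TSC, T was at least 25.4-fold and Gsc at least 7.51-fold higher than in XEN. All 6 tested members were called higher in EpiSC than in XEN (36.6% of tested genes were), 4 of 6 higher in EpiSC than in TSC (27.4%) and 3 of 6 higher in TSC than in XEN (36.5%). Genes absent from a line entered the test through the lines that express them, so these counts are a description only.

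Levels can be set beside each other between genes only per length of the gene model. Per kb of exon, T led in EpiSC with DMSO at 18.2 ± 1.21 CPM per kb (SD, n = 2), above Fgf8 at 12.1 ± 1.25, Nkx1-2 at 3.32 ± 0.0798, Gsc at 0.971 ± 0.0993 and Mixl1 at 0.559 ± 0.00556. The libraries of these 5 neighbours in the order did not overlap. Evx1 at 0.177 ± 0.0422 and Mesp1 at 0.130 ± 0.129 CPM per kb overlapped. In TSC with DMSO the order was T at 1.59 ± 0.0251, Gsc at 0.855 ± 0.0334 and Mixl1 at 0.461 ± 0.125 CPM per kb, with the other 4 members under 0.05. With STM2457 the 3 TSC levels stood in another order, Gsc at 2.58 ± 0.292, T at 2.07 ± 0.471 and Mixl1 at 0.735 ± 0.0309 CPM per kb. The Gsc libraries, at 2.38 and 2.79, overlapped those of T, at 2.40 and 1.74, so the first 2 places were not separated by the spread.

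The next comparison asked what METTL3 inhibition did to the genes in EpiSC. Nkx1-2 fell 2.80-fold, T was lower in both treated libraries without passing the threshold, Fgf8 was little lower, and Gsc and Mixl1 were higher in value without passing it. Of the 6 tested members 1 was called, against 1.68% of all tested genes (1.28% higher and 0.402% lower). Of the called genes 76.1% were higher, against 62.1% with upper-quartile and 96.9% with ribosomal protein scaling. The median log2 fold change of the 6 was -0.32, against 0 for all tested genes. Of the 6, 3 had both STM2457 libraries below both DMSO libraries (26.5% of all tested genes did) and 2 had both above (29.6%). The higher count lies near the share of all genes.

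Nkx1-2 stood at 11.0 and 10.7 CPM with DMSO and at 4.16 and 3.57 with STM2457, from 222, 226, 86 and 83 counts. The groups did not overlap, and the treated libraries held 38.4% and 32.9% of the DMSO mean. The log2 fold change was -1.49 ± 0.278, with a 95% interval from -2.10 to -0.87 (adjusted p = 0.0279), the 535th lowest value among the 18430 tested genes. The call ended with scaling to ribosomal protein genes (adjusted p = 0.0800). It also ended with any 1 of the 4 EpiSC libraries left out (log2 fold change -1.61 to -1.39), where an arm keeps 1 library and most EpiSC calls are lost. In bulk RNA, fewer cells with the transcript and less transcript per cell cannot be told apart.

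T stood at 44.0 and 40.04 CPM with DMSO and at 21.1 and 29.8 with STM2457, from 886, 849, 436 and 694 counts. Both treated libraries lay below both controls, at 50.2% and 71.0% of the DMSO mean, and they differed from each other more than the controls did. The log2 fold change was -0.72 ± 0.202, with an interval from -1.16 to -0.28 (adjusted p = 0.102). It was -1.01 without the second STM2457 library and -0.50 without the first. T was called where each replicate number was a block (adjusted p = 0.00150), in a fit of the EpiSC libraries alone (0.00193) and with no filter on low counts (0.0198). In that order, these fits called 2427 of 18430, 4321 of 14800 and 585 of 31825 genes, against 309 of 18430 in the main fit. The replicate numbers paired nothing in EpiSC (r = -0.012). DESeq2 gave T an adjusted p of 0.0515.

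Fgf8 stood at 15.1 and 17.5 CPM with DMSO and at 13.6 and 13.9 with STM2457. The treated libraries, at 82.9% and 85.2% of the DMSO mean, lay just below the controls. The log2 fold change was -0.25 ± 0.245, with an interval from -0.77 to 0.27 (adjusted p = 0.693), and none of the 11 alternatives called it.

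Gsc stood at 1.14 and 1.32 CPM with DMSO and at 1.55 and 2.28 with STM2457, from 23, 28, 32 and 53 counts. All treated values lay above the controls, and the log2 fold change was 0.64 ± 0.360, with an interval from -0.14 to 1.42 (adjusted p = 0.445). Mixl1 stood at 1.29 and 1.27 CPM with DMSO and at 2.23 and 1.33 with STM2457. Its second treated library was near the controls, so the value of 0.46 ± 0.402 (interval -0.39 to 1.32, adjusted p = 0.652) rested on the first, and it was 0.05 without that library.

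Evx1 stood at 0.596 and 0.424 CPM with DMSO and at 0.339 and 0.430 with STM2457, and the groups overlapped (log2 fold change -0.39 ± 0.810, interval -2.15 to 1.36, adjusted p = 0.897). Mesp1 had 1 and 6 counts with DMSO and 0 and 0 with STM2457. Pooled over the group, its level was 0.169 CPM with DMSO, with an exact Poisson 95% interval from 0.0681 to 0.349, and 0 with STM2457, where the interval reaches 0.0840 CPM. These intervals cover counting error only, and 6 of the 7 DMSO counts came from 1 library.

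**Figure D2:**
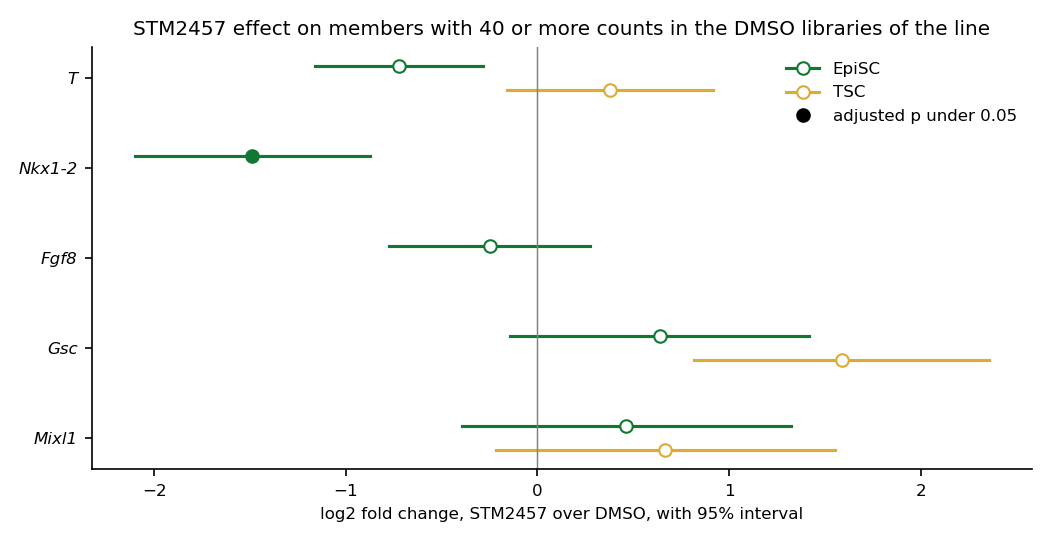
Log2 fold change of STM2457 over DMSO with its 95% interval, for members with at least 40 counts in the DMSO libraries of the line, in EpiSC (green) and TSC (yellow); a filled point is a called gene. Nkx1-2 in EpiSC, at -1.49, is the filled point, T lies at -0.72 in EpiSC and 0.38 in TSC, and Gsc at 0.64 and 1.59.

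The genes that start and accompany the streak were taken as lists beside the members. Of 29 other streak and nascent mesoderm genes 24 were tested in EpiSC. In edgeR 2 were lower and 0 higher, with 4 at an unadjusted p under 0.05 and a median log2 fold change of -0.02. Of all 18430 tested genes 2733 were at an unadjusted p under 0.05 in EpiSC, with a median of 0. Beside this list and those below, edgeR called 0.402% of all tested genes lower and 1.28% higher in EpiSC. DESeq2 called 429 lower and 728 higher of 31825. In this list DESeq2 called the same 2 lower and 1 higher, Bmp4, a BMP ligand. Bmp4 stood at 5.56 and 5.33 CPM with DMSO and at 8.38 and 10.1 with STM2457 (0.76 ± 0.270, adjusted p = 0.187 in edgeR). The 2 lower genes were ligand genes of the WNT pathway. Wnt3, the WNT ligand that starts the streak, stood at 60.0 and 65.6 CPM with DMSO and at 35.8 and 37.7 with STM2457 (-0.77 ± 0.156, adjusted p = 0.0295). Wnt8a, a WNT ligand of the streak, stood at 146 and 159 CPM with DMSO and at 80.1 and 82.3 with STM2457 (-0.91 ± 0.126, adjusted p = 0.00541). The treated libraries held 57.1% and 60.1% of the DMSO mean of Wnt3 and 52.5% and 53.9% of that of Wnt8a, beside 50.2% and 71.0% for T.

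Of 24 tested genes of the Nodal, BMP and WNT pathways edgeR called 1 lower and 0 higher, with a median of -0.02. An unadjusted p under 0.05 in edgeR was found for 4 of them and for 2733 of all 18430 tested genes. DESeq2 called that gene and Ctnnb1, the gene of beta-catenin, lower (Ctnnb1 -0.27 ± 0.0998, adjusted p = 0.187 in edgeR). The gene called by both was Lefty1, a Nodal antagonist that Nodal signalling induces, at 535 and 554 CPM with DMSO and at 353 and 300 with STM2457 (-0.74 ± 0.154, adjusted p = 0.0234). Of 10 tested genes of the anterior streak, node and endoderm, the list nearest in position to Gsc, edgeR and DESeq2 each called 0, with 1 at an unadjusted p under 0.05 in edgeR and a median of -0.16. The 2 with the smallest p were Foxj1, the ciliogenesis factor of the node (-1.16 ± 0.443, adjusted p = 0.215), and Nog, a BMP antagonist (0.67 ± 0.342, adjusted p = 0.377).

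Of 16 tested genes of FGF receptors, FGF feedback and 2 other FGF ligands, Fgf5 and Fgf15, edgeR called 0 in EpiSC, with a median of 0.12. An unadjusted p under 0.05 in edgeR was found for 2733 of all 18430 tested genes and for 3 of these 16. Their smallest p-values were those of Fgf5, the FGF ligand of the primed epiblast, at 42.7 and 56.0 CPM with DMSO and 78.2 and 87.9 with STM2457 (0.75 ± 0.194, adjusted p = 0.0767), and of Dusp6, an ERK phosphatase induced by FGF signalling (0.43 ± 0.136, adjusted p = 0.127). DESeq2 called these 2 genes and no other of the list. Of 12 tested neural and anterior epiblast genes edgeR and DESeq2 each called 1 higher and 0 lower, Pou3f1, a POU factor of the epiblast and neural plate, at 117 and 125 CPM with DMSO and 173 and 170 with STM2457 (0.50 ± 0.109, adjusted p = 0.0391), with a median of -0.04 over the list.

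**Figure D3:**
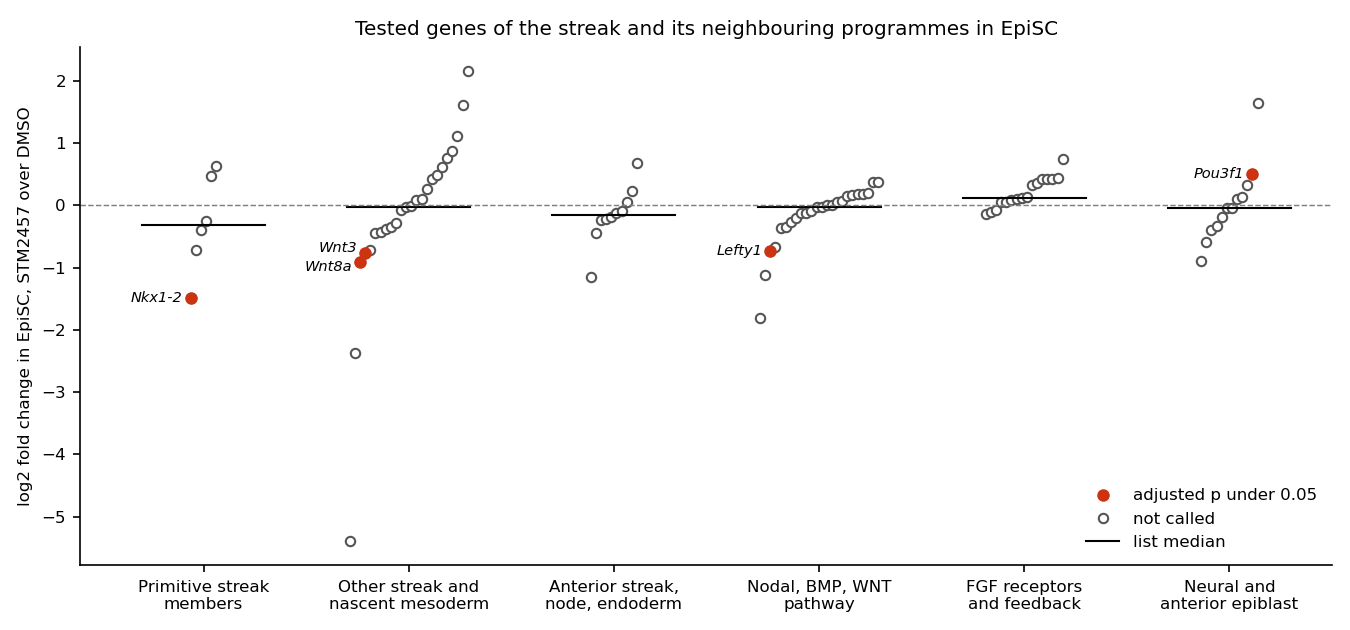
Log2 fold change of STM2457 over DMSO in EpiSC for each tested gene of 6 lists, in rank order within a list, with the list median as a bar; red points are called genes, named beside the point. The medians lie between -0.32 for the 6 tested members and 0.12 for the FGF genes, and the lowest point, Hand1, is a fitted value that rests on 14 counts in 1 DMSO library.

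Like Nkx1-2, the calls of Wnt3, Wnt8a, Lefty1 and Pou3f1 ended with scaling to ribosomal protein genes, and that of Pou3f1 also with upper-quartile scaling. They also ended with any 1 EpiSC library left out, where an arm keeps 1 library and most EpiSC calls are lost. The log2 fold changes were then -0.83 to -0.71 for Wnt3, -0.97 to -0.86 for Wnt8a, -0.87 to -0.64 for Lefty1 and 0.45 to 0.55 for Pou3f1. Marker genes of the lines were checked in the same libraries. Pou5f1 stood at 728 ± 19.5 CPM with DMSO and 558 ± 55.0 with STM2457 in EpiSC (-0.39, adjusted p = 0.173; called by DESeq2). The summed level of the 12 EpiSC markers was 1968 to 2011 CPM with DMSO and 1823 to 1857 with STM2457, that of the 12 TSC markers 577 to 583 and 621 to 643, and that of the 11 fibroblast markers 133 to 150 and 138 to 139. Of the 11 fibroblast markers 7 or 8 stood above 1 CPM in each EpiSC library. Among them, Twist1 stood at 27.0 and 28.0 CPM with DMSO and at 34.3 and 37.3 with STM2457. Lum had 0 counts with DMSO and 1 with STM2457. The part of all these marker genes in the values of the streak genes was not tested.

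**Figure D4:**
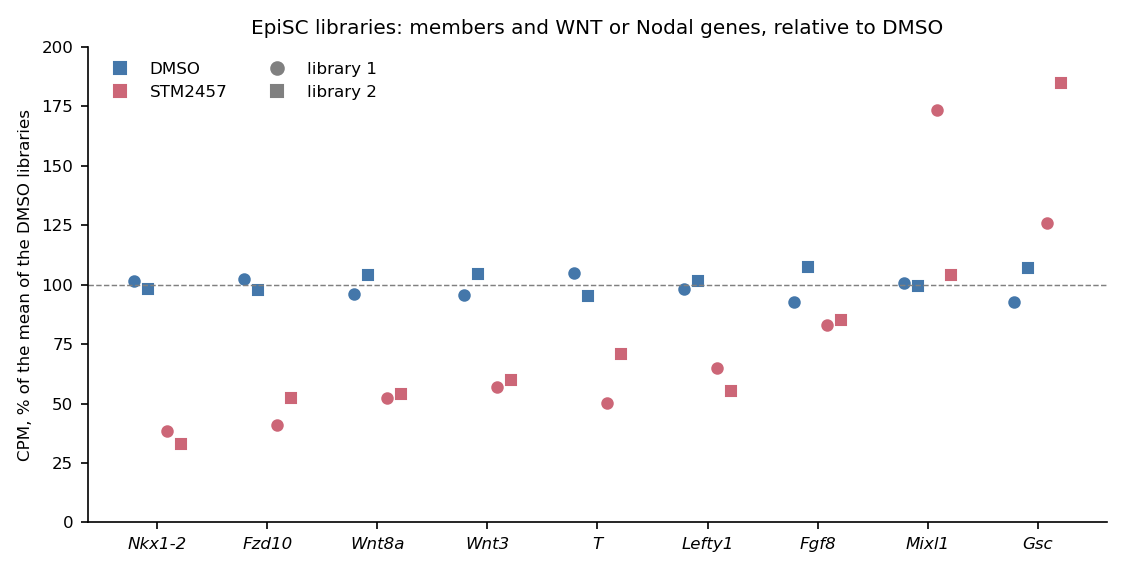
CPM of each EpiSC library as a percentage of the mean of its 2 DMSO libraries, for 5 streak genes and for Fzd10, Wnt8a, Wnt3 and Lefty1; colour gives the arm and the symbol the library number. The STM2457 libraries lie at 38.4% and 32.9% for Nkx1-2, 50.2% and 71.0% for T and 126% and 185% for Gsc.

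In TSC the question was whether the members expressed there responded in the same way. T, Gsc and Mixl1 were higher in value with STM2457, Gsc 3.01-fold, and none was called. Of the 6 tested members 0 were called in edgeR, against 0.966% of all tested genes. DESeq2 called 0 of the members, gave no adjusted p for 5 of the 7, and called 971 of 31825 genes in TSC. Gsc and Evx1 were at an unadjusted p under 0.05 in edgeR, as 2477 of all 18430 tested genes were. T, Gsc and Mixl1 each had both STM2457 libraries above both DMSO libraries, as 27.9% of all tested genes did.

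Gsc stood at 1.11 and 1.05 CPM with DMSO and at 3.01 and 3.54 with STM2457, from 23, 21, 59 and 80 counts. The treated libraries lay well above the controls and above every EpiSC library. The log2 fold change was 1.59 ± 0.355, with an interval from 0.82 to 2.36 (adjusted p = 0.0607). Gsc was called with the replicate number as a block (adjusted p = 0.00299), in a fit of TSC alone (0.000184) and with no filter on low counts (0.0113). In that order, these fits called 2036 of 18430, 4378 of 14515 and 332 of 31825 genes, against 178 of 18430 in the main fit. The replicate numbers paired nothing in TSC (r = -0.0027). With each of the 4 TSC libraries left out, where an arm keeps 1 library, the value stayed between 1.46 and 1.71 and was not called.

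T stood at 3.63 and 3.72 CPM with DMSO and at 5.57 and 4.02 with STM2457 in TSC. The treated libraries lay above the controls, the second by little, and the log2 fold change was 0.38 ± 0.248, with an interval from -0.16 to 0.91 (adjusted p = 0.566). Mixl1 stood at 1.26 and 0.854 CPM with DMSO and at 1.74 and 1.64 with STM2457 (0.67 ± 0.414, interval -0.22 to 1.55, adjusted p = 0.533). Evx1 had 0 and 2 counts with DMSO and 15 and 2 with STM2457, so its value rested on 1 library. Fgf8 had 5 counts in the 4 TSC libraries, Mesp1 had 4 and Nkx1-2 had 0, which leaves no response to measure.

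Among the other streak genes in TSC, edgeR called 0 of 24 tested and DESeq2 also 0, with a median log2 fold change of 0.11 in edgeR. An unadjusted p under 0.05 in edgeR was found for 5 of the 24 and for 2477 of all 18430 tested genes. Wnt3a, the WNT ligand of the later streak, stood at 1.21 and 1.01 CPM with DMSO and at 3.22 and 2.57 with STM2457 (1.37 ± 0.428, adjusted p = 0.173). Mesp2, the neighbour and paralogue of Mesp1, stood at 1.79 and 1.46 CPM with DMSO and at 3.42 and 3.94 with STM2457 (1.18 ± 0.33, adjusted p = 0.110). Both were named after their values were seen. The summed level of the 11 fibroblast markers in TSC was 15.9 to 17.3 CPM with DMSO and 20.7 to 23.3 with STM2457. Of the 11, 4 stood above 1 CPM in each TSC library, and Col3a1, Dcn and Lum had 0 counts in both arms. Of the list, edgeR called 0, with 1 at an unadjusted p under 0.05, and DESeq2 called Twist1 higher. The summed level of the 12 XEN markers in TSC was 517 to 540 CPM with DMSO and 521 to 527 with STM2457. Of the 11 tested, 9 had positive values (median 0.51), beside 8639 of all 18430 tested genes (median 0). For these markers edgeR called 0, with 4 at an unadjusted p under 0.05, and DESeq2 called Dab2 higher (0.467 ± 0.163 CPM with DMSO and 1.27 ± 0.230 with STM2457). The part of these markers in the TSC values of the streak genes was not tested.

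In XEN, T, Nkx1-2, Evx1, Gsc and Mesp1 had 0 counts in all 6 libraries. A level of 0.145 CPM with DMSO and 0.122 with STM2457 corresponds to 3 counts over the group, so lower levels could have been missed. Mixl1 had 1 count in 1 DMSO library and Fgf8 1 count in 1 STM2457 library. Of the 6 tested members edgeR and DESeq2 called 0, and edgeR called 4.15% of all tested genes. In edgeR 0 members were at an unadjusted p under 0.05, against 3195 of all 18430 tested genes. The endoderm line thus had 0 or 1 count of each member in each arm.

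The difference in response between EpiSC and TSC was tested as an interaction. For T the log2 fold change in EpiSC minus that in TSC was -1.10 ± 0.320, with an interval from -1.79 to -0.40, which did not pass the adjustment over all genes (adjusted p = 0.995). A fit of these 2 lines alone gave an adjusted p of 0.0111 and the replicate block 0.0547. For the same difference, the fit of the 2 lines alone called 683 of 16140 genes and the block 111 of 18430. The main fit in edgeR called 1 of the 18430 genes, 0.00543%. For Gsc the difference was -0.95 ± 0.508, with an interval from -2.05 to 0.15 (adjusted p = 1), and for Mixl1 -0.20 ± 0.576, with an interval from -1.43 to 1.03. Neither interval shows that the responses were alike. For Nkx1-2 no difference could be estimated, since TSC had 0 counts.

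The members did not share 1 pattern across the 14 libraries. By the Pearson correlation of log2 CPM, Nkx1-2 and Fgf8 had r = 0.985, and Gsc and Mixl1 had r = 0.966, while Nkx1-2 and Gsc had r = 0.466. T stood between, at r = 0.927 with Mixl1, 0.900 with Gsc, 0.809 with Fgf8 and 0.787 with Nkx1-2. Since the libraries are 14 samples of 3 lines, these values describe mainly which lines express a gene. Among 14327 protein-coding genes, the 3 most like T were Cntfr, a cytokine receptor subunit, Fzd10, a WNT receptor, and Plcxd1 (r = 0.997 each). The correlation includes the treated EpiSC libraries, so the EpiSC values of genes chosen by it are given as a description, with no test. Fzd10 stood at 41.3 and 39.3 CPM with DMSO and at 16.5 and 21.2 with STM2457, a log2 fold change of -1.10, beside -0.12 for Cntfr and -0.28 for Plcxd1.

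The 3 genes most like Nkx1-2 were Cbln2, Fam19a4 and Izumo1r (r = 0.999 each), which likewise had 0 counts in TSC and XEN. Their log2 fold changes in EpiSC were -1.02, -0.95 and -0.96. With 0 counts elsewhere, the treatment difference in EpiSC was part of what chose them. Those most like Fgf8 were Kcnq3, Col5a2 and Edil3 (r = 0.998, 0.997 and 0.996), with log2 fold changes in EpiSC of -0.11, -0.22 and -0.10. Those most like Gsc were Prima1, Sfrp5 and Tnfsf9 (r = 0.992, 0.990 and 0.985), with log2 fold changes in EpiSC of -0.09, 0.16 and 0.79. Mixl1 was most like Ppp1r26, Slc45a1 and Unc13a (r = 0.991, 0.988 and 0.987) and Evx1 most like Trim5, Dok6 and Shc3 (r = 0.914, 0.902 and 0.899), at levels where counting error is large.

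Features of the genes outside the measurements were compared with 14322 tested protein-coding genes in the GENCODE M21 annotation. The members mostly had few exons: Nkx1-2, Mixl1 and Mesp1 had 2 exons, Evx1 and Gsc 3, Fgf8 5 and T 8, against a median of 9. Their longest coding transcripts ran from 1168 bases for Fgf8 to 3264 for Nkx1-2 (52.7th percentile), against a median of 3132. GGAC, the core of the sequence that METTL3 methylates, occurred 7.89 times per kb of the Gsc transcript (95.5th percentile) and 9.41 times per kb of that of Mesp1 (98.7th percentile). For T it occurred 4.89 times per kb, for Nkx1-2 4.29, for Evx1 4.52, for Fgf8 5.14 and for Mixl1 2.62, against a median of 4.19. The value of Nkx1-2 lay near the median, at percentile 52.1. A link between this feature and the response was not tested. The longest exon of Nkx1-2 had 2939 bases (78.0th percentile). m6A itself was not measured in these libraries.

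Nkx1-2 lies within the span of Fgfr2 on the same strand in that annotation and shares 0 exon bases with it. Fgfr2, an FGF receptor of trophoblast stem cells, stood at 193 to 217 CPM in TSC, where Nkx1-2 had 0 counts, and at 14.2 and 14.4 CPM with DMSO and 16.0 and 14.9 with STM2457 in EpiSC. An antisense gene, Gm16764, shares 541 exon bases with Nkx1-2 and had at most 2 counts in any library. Evx1 shares 73 exon bases with its antisense gene Evx1os, which had at most 6 counts, so part of the few Evx1 counts may belong to it.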

How the data were processed

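Total RNA was sequenced from 14 libraries with a stranded kit, per the labels' protocols. The submitters' processing notes name FastQC, Trim Galore, STAR and featureCounts and the build GRCm39; versions and the strand setting are not given in the sources used here. The deposited values are whole-number counts per gene, not normalized. Names, exon lengths and overlaps came by Ensembl identifier from GENCODE M21 (GRCm38), which named all but 3333 of 55416 identifiers.

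The fit, in edgeR 4.0.16 under R 4.3.3, took the 6 groups of 14 libraries together, with TMM scaling, filterByExpr (minimum count 10, minimum total 15) and a robust quasi-likelihood F test, two-sided. CPM use TMM-scaled totals. Intervals are 95%, and a group at 0 was given 3 counts as its floor. Counting intervals cover counting error only. The members and lists were chosen with earlier results of these data known. Named genes are the members, the called genes of each list in EpiSC (up to 4 per direction) or its 2 smallest p, and the 3 genes most correlated with each member over log2 CPM (prior count 2). Fzd10 entered that way and was added to a plot after its values were seen.

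Alternatives were DESeq2 1.42.0, RLE, upper-quartile and ribosomal protein scaling, no filter, fits of the compared lines alone, replicate number as a block, and each library omitted in turn. XEN libraries of the same number deviated together (r = 0.220, 0.376 and 0.337); in TSC (-0.0027) and EpiSC (-0.012) the numbers paired nothing. On simulated EpiSC counts (18037 genes) the fit recovered 98% of 50 genes changed 0.33-fold and 70% of 50 changed 0.5-fold, with 12 of 17837 unchanged genes called. The changed genes were drawn only from genes at higher EpiSC levels than Gsc, Mixl1, Evx1 and Mesp1, so the recovery does not cover these members. Each simulated gene had the same spread in all lines, so a spread that differs between lines was not simulated. No library pair looked like a repeat deposit: the chi-square per degree of freedom between replicates was at least 2.25.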

Additional observations from a re-analysis of the deposited data

Results flagged for a closer look

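T, the general marker of the primitive streak, had values on opposite sides of its controls in 2 lines, though it was called in neither (adjusted p = 0.102 in EpiSC and 0.566 in TSC in edgeR): both EpiSC libraries with STM2457 lay below both DMSO libraries, at 21.1 and 29.8 against 44.0 and 40.04 CPM, and both TSC libraries with STM2457 lay above both DMSO libraries, at 5.57 and 4.02 against 3.63 and 3.72 CPM. Of all tested genes 26.5% lay lower in this way in EpiSC and 27.9% higher in TSC, and the share that did both was not computed. In TSC the nearest libraries of the 2 arms were close, at 4.02 and 3.72 CPM. The difference of the log2 fold changes, EpiSC minus TSC, was -1.10 ± 0.320 (interaction term in edgeR, adjusted p = 0.995 over all tested genes). It ranged from -1.38 to -0.87 over 15 alternatives, of which 1, the fit of the compared lines alone, called it (adjusted p = 0.0111). That fit called 683 of 16140 genes for this difference, against 1 of 18430 in the main fit.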

How the results depend on the processing

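Within EpiSC no member changed sign under any alternative. Nkx1-2 was called in 6 of 11 alternatives (log2 fold change -1.61 to -1.36), T in 3 of 11 (-1.01 to -0.50) and Fgf8, Gsc, Mixl1 and Evx1 in none. Gsc in TSC was called in 3 of 10 (1.46 to 1.73). The count of members called in EpiSC was 1, against 0 with ribosomal protein scaling, 2 with no filter, with the replicate block and with the lines fitted alone, and 0 to 0 with a library left out; in TSC it was 0, against 1 in the same 3 fits.

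The number of called genes moved more. In EpiSC 309 became 129 with ribosomal protein scaling, 585 with no filter, 4321 with the line alone, 1157 with DESeq2 and 7 to 17 with a library left out. In TSC 178 became 82, 332, 4378, 971 and 3 to 12. In XEN 764 became 140 with ribosomal protein scaling, 25 with the line alone, 1613 with DESeq2 and 414 to 1048 with a library left out. For EpiSC minus TSC 1 became 0, 44, 683, 25 and 0 to 1, and for EpiSC minus XEN 2 became 0 (also with RLE), 66, 0, 45 and 0 to 4. With an EpiSC or TSC library left out, the lone library of its arm is assumed to vary like the others.

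The fit with a replicate block called 2427 genes in EpiSC (309 of the 309 among them), 2036 in TSC, 2448 in XEN, 111 for EpiSC minus TSC and 179 for EpiSC minus XEN. Among members, the block added T in EpiSC and Gsc in TSC. The numbers pair only the XEN libraries.

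The share of called genes that were higher was 76.1% in EpiSC, against 60.6% with the block, 52.0% with the line alone and 62.9% with DESeq2. In TSC it was 86.5%, against 98.8% with ribosomal protein scaling, 60.5% with the block, 54.1% with the line alone and 66.9% with DESeq2. In XEN it was 74.1%, against 88.6%, 59.8%, 96.0% and 55.9%. Ribosomal protein scaling moved the median of all genes by 0.12 in EpiSC and 0.11 in TSC, and to -0.75 for EpiSC against XEN, 0.28 for EpiSC against TSC and -1.04 for TSC against XEN in DMSO.

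Values that changed sign rested on few counts. Fgf8 in TSC ranged from -2.77 to 1.30 with a library left out, and its EpiSC minus TSC difference from -1.56 to 2.51. That of Mixl1 ranged from -0.62 to 0.11, and was 0.04 without the second TSC library with DMSO. DESeq2 gave no adjusted p for Mixl1, Gsc and Evx1 in EpiSC and for Mesp1, and Evx1 and Fgf8 had no value in TSC fitted alone. Depth limits Gsc, Mixl1 and Evx1, with 9 to 53 counts per EpiSC library apart from 7 of Evx1 in 1 of them, and all members in XEN. Other causes of these changes were not tested.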
